A study of Mus musculus with 10 samples.

Results

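The nuclear genes of oxidative phosphorylation were followed in round spermatids, the haploid germ cells that arise from meiosis, after a short heating of the testis. Members were chosen by name alone: protein-coding genes whose symbol starts with Nduf followed by a, b, c, s or v, with Uqcr, with Cox4 to Cox8 or with Atp5, together with Sdha, Sdhb, Sdhc and Sdhd. This gave 96 genes among 55401 genes in the table, of which 21859 were protein-coding. The members comprised 7 core subunits of complex I, 30 accessory subunits of complex I, 8 assembly factors of complex I (the Ndufaf genes), the 4 subunits of complex II, 8 genes of complex III, 19 of complex IV, the pair Ndufa4 and Ndufa4l2, and 18 of complex V. Ndufa4 was kept apart because its protein, named for complex I, is now placed in complex IV.

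The 42 °C group and the 33 °C group each held 5 adult male CD1 mice, an outbred stock, with 1 library of round spermatids per mouse. All mice were anaesthetised with isoflurane, and water of the stated temperature touched the testes for 30 minutes. They woke before they were killed, and the cells were isolated after that. The time from heating to the end of isolation is not stated here. The libraries were stranded and made from total RNA depleted of ribosomal RNA, and p-values measure the spread between mice.

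Oxidative phosphorylation makes ATP in the inner mitochondrial membrane. Complexes I and II pass electrons from NADH and succinate to ubiquinone, complex III hands them to cytochrome c, complex IV passes them to oxygen, and complexes I, III and IV pump protons whose return through complex V drives ATP synthesis. Complex II is encoded wholly in the nucleus, while the other complexes combine nuclear subunits with subunits encoded in mitochondrial DNA. Several small subunits of complex IV exist as paralogues, and Cox6b2, Cox7b2 and Cox8c are known as forms enriched in testis, beside the widely expressed Cox6b1, Cox7b and Cox8a.

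Promoters of the testis forms are shown beside those of somatic partners because the paralogue pairs differ so much in level in these cells. The sequences come from RefSeq (GRCm38.p6), run 5′ to 3′ in the direction of transcription, and cover 250 bases before to 50 bases after the annotated start. Entries were found for 76 of the 96 members, and Cox8c and Ndufa4l2 have none. Capitals mark matches, on either strand, to letters used for NRF1 (GCGC, any base, then TGCGC), ETS factors (CCGGAAG), YY1 (AAGATGGCG), CRE-binding factors (TGACGTCA) and SP1 (GGGCGG). Cox6a1, a widely expressed subunit, is added as a promoter with several matches.
Cox6b2 promoter, chr7:4753045-4753344, minus strand: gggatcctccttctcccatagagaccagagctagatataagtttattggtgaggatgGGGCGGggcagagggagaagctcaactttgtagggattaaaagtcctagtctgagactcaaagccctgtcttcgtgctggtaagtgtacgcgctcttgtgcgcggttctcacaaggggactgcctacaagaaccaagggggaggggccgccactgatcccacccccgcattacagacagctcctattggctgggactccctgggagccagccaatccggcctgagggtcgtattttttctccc
Cox6b1 promoter, chr7:30626065-30626364, minus strand: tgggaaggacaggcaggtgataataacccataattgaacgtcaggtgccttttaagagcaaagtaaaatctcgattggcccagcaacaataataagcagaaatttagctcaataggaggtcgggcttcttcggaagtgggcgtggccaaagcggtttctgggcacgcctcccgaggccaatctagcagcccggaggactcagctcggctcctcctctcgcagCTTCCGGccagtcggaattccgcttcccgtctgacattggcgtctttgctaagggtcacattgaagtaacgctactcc
Cox7b2 promoter, chr5:71548156-71548455, minus strand: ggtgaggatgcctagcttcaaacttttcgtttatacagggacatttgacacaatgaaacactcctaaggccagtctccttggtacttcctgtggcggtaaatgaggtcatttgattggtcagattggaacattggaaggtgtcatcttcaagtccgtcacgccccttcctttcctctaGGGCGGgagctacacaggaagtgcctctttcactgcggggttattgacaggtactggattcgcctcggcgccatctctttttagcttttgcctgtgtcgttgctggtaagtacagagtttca
Cox7b promoter, chrX:106015450-106015749, plus strand: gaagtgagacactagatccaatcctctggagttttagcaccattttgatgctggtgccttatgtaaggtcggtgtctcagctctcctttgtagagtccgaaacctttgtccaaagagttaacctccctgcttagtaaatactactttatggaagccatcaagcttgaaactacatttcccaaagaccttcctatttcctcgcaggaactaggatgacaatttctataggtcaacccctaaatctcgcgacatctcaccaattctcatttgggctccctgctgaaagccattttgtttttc
Cox6a1 promoter, chr5:115348909-115349208, minus strand: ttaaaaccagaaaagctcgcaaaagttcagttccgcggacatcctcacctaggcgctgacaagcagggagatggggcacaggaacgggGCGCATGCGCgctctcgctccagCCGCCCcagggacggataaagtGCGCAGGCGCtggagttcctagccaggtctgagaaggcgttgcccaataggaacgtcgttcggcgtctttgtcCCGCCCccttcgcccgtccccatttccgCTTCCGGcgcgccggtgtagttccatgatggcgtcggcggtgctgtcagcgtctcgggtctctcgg
The Cox6b2 and Cox7b2 windows each held 1 SP1 match and no other. The Cox6b1 window held 1 ETS match, and the Cox7b window held none of the 5 motifs. The Cox6a1 window held 2 NRF1, 1 ETS and 2 SP1 matches, with no overlap between them. Over the 76 members with an entry, NRF1 letters were present in 23.7% (18 promoters), against 4.6% of all 32851 promoters in the same table. ETS letters were present in 23.7% (18) of the members, against 8.86% of all promoters, and YY1 letters in 9.21% (7), against 1.40%. CRE letters were present in 5.26% (4), against 1.79%, and SP1 letters in 46.1% (35), against 35.7%. NRF1 and the ETS factor GABP are known regulators of respiratory chain genes. All 5 motifs were more frequent in the members, but the full set of promoters was not matched to them in gene class, level or GC content. A match is a stretch of letters and was not tested as a binding site.

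Depth was high throughout. Total counts ran from 60623568 to 102086073 at 42 °C and from 92311183 to 117723075 at 33 °C, and 42 °C replicate 2 was the shallowest library. That library also had 16.2% of its counts on transposable elements (TE), against 5.79% to 7.30% in the other 42 °C libraries and 4.62% to 9.07% in the 33 °C libraries. Medians and sign counts of fold changes are therefore also given without it, and so are log2 fold changes of single genes that it turned in sign or moved by over 1.5 times. Markers of round spermatids were plentiful in every library, with a summed level of 1960 to 2940 CPM (counts scaled to library size) at 42 °C and 1450 to 2650 CPM at 33 °C over 15 genes. Markers of elongating spermatids (14 genes) summed to 5120 to 10900 CPM at 42 °C and 5380 to 8030 CPM at 33 °C. Markers of spermatocytes (14 genes) summed to 1040 to 1310 CPM at 42 °C and 1250 to 1550 CPM at 33 °C. Markers of neighbouring germ cell stages were thus present in both groups, and several of them, such as protamine genes, are already transcribed in round spermatids. In bulk RNA such as this, fewer cells of a type and less RNA per cell cannot be told apart. No marker gene was at 0 over all 10 libraries. The sums were 8.90 to 21.3 CPM at 42 °C and 6.01 to 17.2 CPM at 33 °C for Sertoli cells (10 genes); they were 3.07 to 8.00 CPM at 42 °C and 3.12 to 19.8 CPM at 33 °C for Leydig cells (8 genes). For peritubular cells (7 genes) they were 14.4 to 19.6 CPM at 42 °C and 12.7 to 25.6 CPM at 33 °C. Macrophage markers (7 genes) summed to 6.35 to 8.97 CPM at 42 °C and 7.12 to 10.7 CPM at 33 °C. Endothelial markers (5 genes) summed to 18.9 to 26.4 CPM at 42 °C and 12.3 to 24.0 CPM at 33 °C. Erythroid markers (6 genes) summed to 0.221 to 0.392 CPM at 42 °C and 0.0747 to 0.406 CPM at 33 °C. Spermatogonium markers (10 genes) summed to 428 to 757 CPM at 42 °C and 605 to 756 CPM at 33 °C. They included Ddx4, which later germ cells also express, at 592 ± 121 CPM at 42 °C and 698 ± 65.4 CPM at 33 °C (SD over 5 mice each).

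Transcripts of oxidative phosphorylation genes were abundant, and no member that could be tested passed the threshold for a change with heating. Summed over the 96 members, the level was 5516, 3827, 5807, 4900 and 4794 CPM in 42 °C replicates 1 to 5, against 5079, 6065, 4893, 5330 and 5477 CPM in 33 °C replicates 1 to 5. The means were 4970 ± 765 CPM at 42 °C and 5370 ± 449 CPM at 33 °C (SD over 5 mice each). The lowest value of all belonged to 42 °C replicate 2, and the groups overlapped. Without that library the 42 °C mean was 5250 ± 487 CPM (SD over 4 mice).

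Levels of different genes were compared as CPM per kb of exon, the length being the union of annotated exons. On this scale the median of the 91 tested members was 19.96, beside 2.09 for all 16082 ranked protein-coding genes that were tested. Of the 91, 85 lay in the upper 50% of those genes and 28 in the upper 10%. Cox8c was the most abundant member and ranked 43 of 16082, at 405 ± 90.02 CPM per kb at 42 °C and 447 ± 44.5 CPM per kb at 33 °C (SD over 5 mice each). Cox6b2 came next and ranked 117 of 16082, at 238 ± 40.4 CPM per kb at 42 °C and 253 ± 13.6 CPM per kb at 33 °C (SD over 5 mice each). With the length of the principal transcript in place of the exon union, a choice made after seeing the data, Cox6b2 stood before Cox8c. On exon unions Cox7a2, Ndufa12, Cox7b2, Atp5b, Ndufaf3 and Ndufv2 completed the first 8, so 3 of the 5 leading members were testis forms of complex IV. With principal transcripts Atp5b, Cox7a2 and Ndufa12 followed the first 2, and Cox7b2 stood at place 12.

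**Figure D1:**
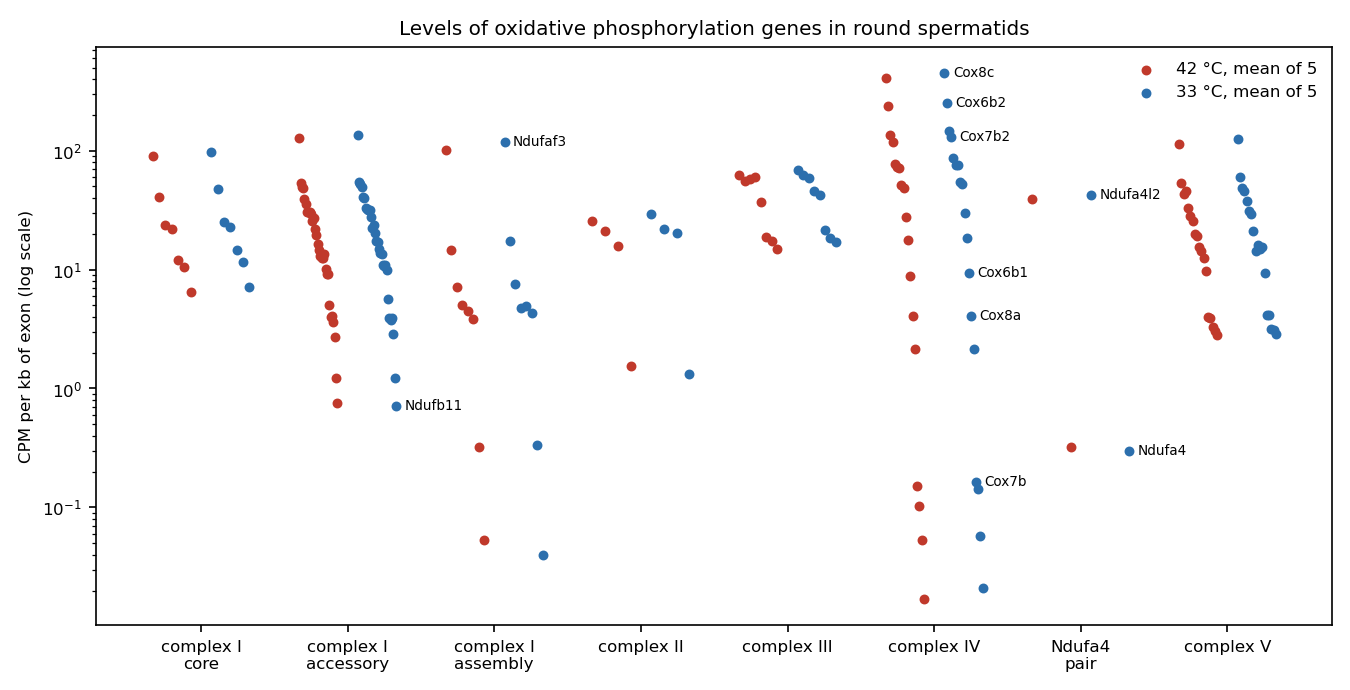
Level of each of the 96 genes as mean CPM per kb of exon (log scale), by complex, with 42 °C means in red left of 33 °C means in blue (n = 5 each). Genes are ordered by level within a class and Cox8b, at 0, is not drawn. Complex IV runs from Cox8c at 405 and 447 to genes under 1.

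Complex IV showed the widest range of levels, since paralogues of one subunit differed by orders of magnitude. Cox6b2 (ENSMUSG00000051811, chromosome 7, 4751792 to 4753094, GRCm38) encodes the testis form of the subunit that lies at the interface of the complex IV dimer. It was at 226, 228, 324, 298 and 239.9 CPM in 42 °C replicates 1 to 5, against 289, 281, 279, 256 and 296 CPM in 33 °C replicates 1 to 5. The highest and lowest values both fell at 42 °C, and the 33 °C libraries lay between them. Its log2 fold change was -0.09 (95% interval -0.36 to 0.18; adjusted p = 0.743 by edgeR), and -0.011 without 42 °C replicate 2. Cox6b1, the somatic form (chromosome 7, 30616861 to 30626151), was at 4.20 to 7.63 CPM at 42 °C and 5.47 to 7.92 CPM at 33 °C (log2 fold change -0.07, adjusted p = 0.873 by edgeR; 0.08 without 42 °C replicate 2). Per kb of exon, Cox6b2 made up 96.3% ± 0.924 of the pair at 42 °C and 96.5% ± 0.357 at 33 °C (SD over 5 mice each). This was 27.6-fold over Cox6b1 at 42 °C and 27.4-fold at 33 °C, with 19.0-fold to 34.8-fold over the 10 libraries. With principal transcript lengths the fold was 45.7 at 42 °C and 45.4 at 33 °C.

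Cox8c, the testis form of the smallest subunit of complex IV (ENSMUSG00000043319, chromosome 12, 102899316 to 102900526), was at 225, 146, 235, 157 and 164 CPM in 42 °C replicates 1 to 5, against 198, 236, 184, 214 and 193 CPM in 33 °C replicates 1 to 5. Replicates 2, 4 and 5 at 42 °C lay below every 33 °C library, and replicates 1 and 3 lay above all of them but 33 °C replicate 2. The log2 fold change was -0.14 (95% interval -0.47 to 0.18; adjusted p = 0.666 by edgeR). Without 42 °C replicate 2 it was -0.04, and 0.08 by limma voom without that library. Cox8a, the widely expressed form (chromosome 19, 7215153 to 7217616), averaged 2.52 ± 0.518 CPM at 42 °C and 2.52 ± 0.213 CPM at 33 °C (SD over 5 mice each). Cox8b, the form of heart and skeletal muscle, had 0 counts in all 10 libraries. Cox8c thus held 99.0% ± 0.0987 of the set per kb at 42 °C and 99.1% ± 0.105 at 33 °C.

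Cox7b2 (ENSMUSG00000049387, chromosome 5, 71442824 to 71548205) was at 89.1, 44.7, 68.2, 57.2 and 60.2 CPM in 42 °C replicates 1 to 5, against 64.0, 76.1, 56.7, 79.8 and 73.8 CPM in 33 °C replicates 1 to 5. The highest and lowest values were again both at 42 °C (log2 fold change -0.13, 95% interval -0.51 to 0.24; adjusted p = 0.720 by edgeR). Without 42 °C replicate 2 the log2 fold change was -0.004, and without 42 °C replicate 1 it was -0.28. Its partner Cox7b, on the X chromosome (106015700 to 106022450), was at 0.129 to 0.246 CPM at 42 °C and 0.147 to 0.308 CPM at 33 °C. Per kb, Cox7b2 stood 847-fold over Cox7b at 42 °C and 851-fold at 33 °C, with 519-fold to 1320-fold over the libraries. Copies of Cox7b in pseudogenes, at 95% identity or more, held 36.5% of the counts of Cox7b and its copies together, so the low count of Cox7b may depend on how such reads were placed. None of the pairs Cox6b1 and Cox6b2, Cox7b and Cox7b2, Cox8a and Cox8c or Ndufa4 and Ndufa4l2 shared a stretch of that identity with each other.

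The remaining paralogue sets of complex IV were led by widely expressed forms. Cox4i1, the main form of the subunit at which ATP regulates the complex, averaged 120 ± 25.03 CPM at 42 °C and 134 ± 14.6 CPM at 33 °C (SD over 5 mice each), while Cox4i2, a lung-enriched and hypoxia-responsive form, had 6 counts over the 42 °C libraries and 8 over the 33 °C libraries. Cox6a1, the liver-type form, averaged 50.3 ± 9.53 CPM at 42 °C and 52.9 ± 5.82 CPM at 33 °C. The muscle form Cox6a2 had 32 counts over the 42 °C libraries and 47 over the 33 °C libraries. Cox7a2, the liver-type form, made up 82.7% of its set per kb at 42 °C and 82.9% at 33 °C. Cox7a2l, which takes part in respiratory supercomplexes, made up 17.3% at 42 °C and 17.1% at 33 °C, and the muscle form Cox7a1 had 12 counts at 42 °C and 15 at 33 °C. A pseudogene copy, Gm6969, held 26.5% of the counts of Cox7a2l and its copy together. Heart and muscle forms were thus at or near 0 in both groups.

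Ndufa4l2 and Ndufa4 made a further pair in which the less usual form led. Ndufa4l2 (ENSMUSG00000040280, chromosome 10, 127514967 to 127517154), a paralogue known for its induction by hypoxia in somatic cells, was at 43.1, 33.9, 49.0, 46.3 and 42.6 CPM in 42 °C replicates 1 to 5, against 47.7, 45.3, 40.9, 46.8 and 52.7 CPM in 33 °C replicates 1 to 5. The groups overlapped, with the lowest value in 42 °C replicate 2 (log2 fold change -0.12, 95% interval -0.38 to 0.14; adjusted p = 0.659 by edgeR; -0.015 without that library). Ndufa4 averaged 0.446 ± 0.0464 CPM at 42 °C and 0.409 ± 0.0528 CPM at 33 °C (SD over 5 mice each; log2 fold change 0.12, adjusted p = 0.785 by edgeR). Per kb, Ndufa4l2 was 122-fold over Ndufa4 at 42 °C and 146-fold at 33 °C, with 103-fold to 184-fold over the libraries. With principal transcript lengths the fold was 63.2 at 42 °C and 75.8 at 33 °C (53.3 to 95.4 over the libraries). Exons of Ndufa4l2 overlap those of Shmt2 on the opposite strand over 32 bases.

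**Figure D2:**
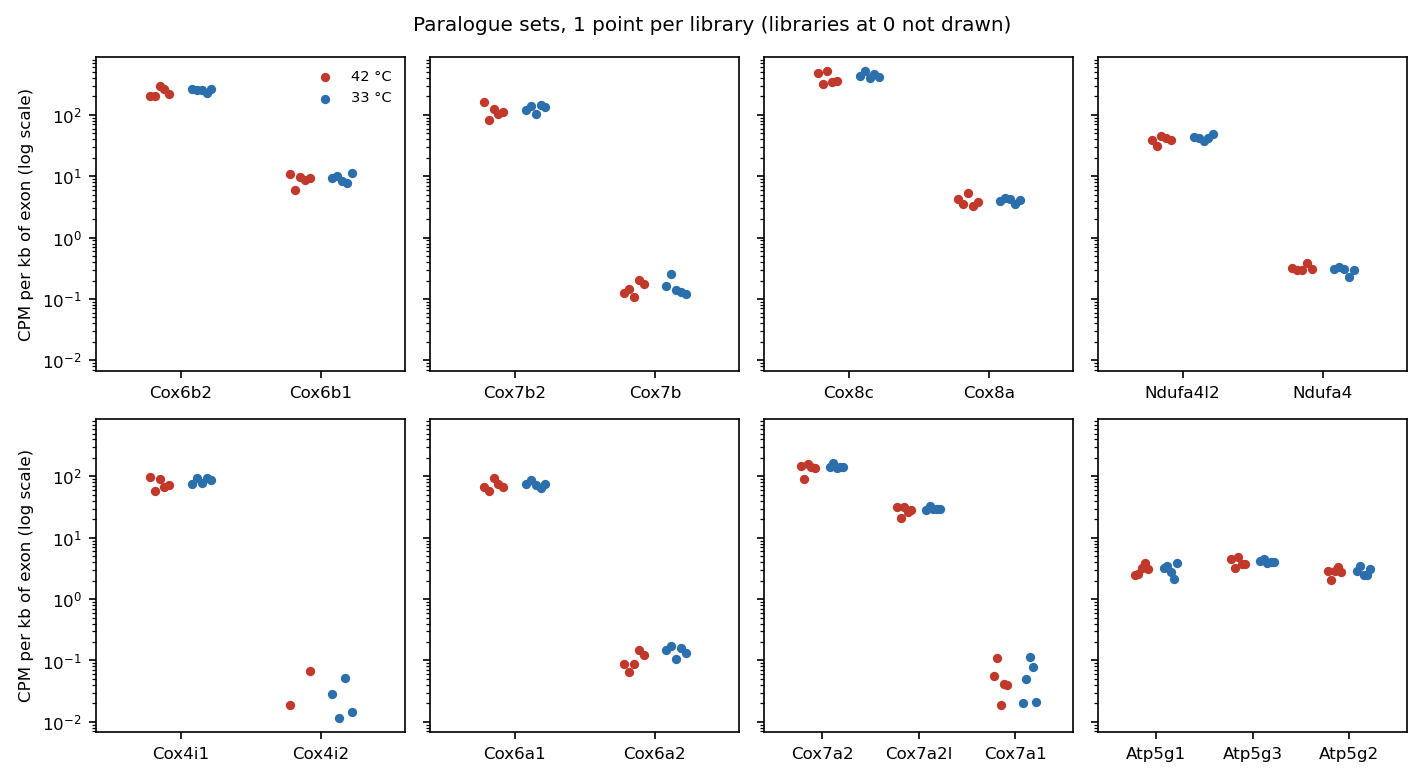
CPM per kb of exon (log scale) in each library for 8 paralogue sets, with 42 °C libraries in red left of 33 °C libraries in blue. Points at 0 (4 library values of the members drawn) are left out; the Cox6b2, Cox7b2, Cox8c and Ndufa4l2 clouds lie above their partners in all 10 libraries.

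The c subunit of complex V, which forms the rotating ring of ATP synthase, is encoded by 3 genes whose mature products are the same. Their levels were near each other on exon unions, with shares of 31.0% for Atp5g1, 40.6% for Atp5g3 and 28.3% for Atp5g2 at 42 °C, and of 30.1%, 41.3% and 28.5% at 33 °C. With principal transcript lengths the 42 °C shares were 14.8%, 55.6% and 29.6%, so Atp5g1 fell below Atp5g2. Atp5g3 had the largest mean share by both lengths. On exon unions, however, Atp5g1 over Atp5g3 ran from 0.525 to 1.05 over the libraries. The length of Atp5g1 hardly differed between the scales (4912 and 4715 bases). That of Atp5g3 went from 2181 to 723 bases and that of Atp5g2 from 1675 to 731. The second length is thus no check on Atp5g1, which had the highest mean CPM of the 3 genes in both groups. Gm10039, a pseudogene copy, held 28.4% of the counts of Atp5g1 and its copy together. None of the 3 genes passed the test (adjusted p = 0.979 by edgeR for Atp5g1, 0.858 for Atp5g3 and 0.899 for Atp5g2).

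The comparison of the groups asks whether heating changed the transcripts of the complexes. In the edgeR quasi-likelihood test 0 of 91 members were higher and 0 were lower at an adjusted p of 0.05, where 0.0884% of all 26025 tested features were called higher and 0.00384% lower. DESeq2 called 0 members higher and 0 lower (0.989% and 0.119% of all features), as did limma voom (0.476% and 0.111%). At an unadjusted p of 0.05 by edgeR, 1 member was higher and 1 lower, where 8.56% of all features were higher and 2.94% lower. Among the 7675 protein-coding genes with a mean of at least 10 CPM those shares were 4.36% and 4.56%. In 0 members did the 42 °C libraries all lie above those at 33 °C, and in 0 did they all lie below, against 1.32% and 0.68% of all features. The remaining 5 members had too few counts to be tested: Ndufaf6 with 29 counts at 42 °C and 24 at 33 °C, and Cox6a2, Cox7a1, Cox4i2 and Cox8b as given above.

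The intervals set how large an unseen change could be. The 95% interval of the fold change lay within 1.5-fold in either direction for 78 of the 91 members and within 2-fold for 90. The exception to the last was Uqcrq. In this edgeR fit most members were thus bounded, each by its own interval, to less than a 1.5-fold change in CPM. Changes smaller than the intervals were not detectable at this spread between mice.

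Fold changes lay slightly under 0 for most members. The log2 fold change was under 0 in 76 of 91 members, or 83.5%, against 51.1% of all features and 69.8% of protein-coding genes with a mean of at least 10 CPM. The median was -0.10 (quartiles -0.15 and -0.06), beside -0.01 for all features and -0.12 for those protein-coding genes. In the edgeR fit with all 10 libraries the median of the members thus sat close to that of other well expressed genes. The median moved with single libraries and with the fit. By limma voom with sample weights and all 10 libraries it was 0.01, with 40 of 91 members under 0. The median of those protein-coding genes was then -0.05. Since that fit also weights each library, a change of tool and a lower weight of single libraries cannot be told apart. Of the libraries, 42 °C replicate 2 was the lowest in 68 of 91 members, or 74.7%, against 22.8% of all features and 45.0% of the protein-coding genes. It was the highest in 1 member, Sdhc, or 1.1%, against 21.9% of all features and 6.25% of the protein-coding genes. Without it 42 of 91 members lay under 0 and the median was 0.01, beside -0.03 for those protein-coding genes. The highest level of a member lay most often in 33 °C replicate 2, in 42 of 91 members, and this library was also the deepest. The share of all features that were highest there was not counted. Relative to each gene's mean over all 10 libraries, those protein-coding genes were highest there too (median log2 level 0.15). The same median was 0.21 for the members and -0.07 for all features. Without 33 °C replicate 2, 51 of 91 members lay under 0 and the median was -0.02, beside -0.04 for those protein-coding genes. The part of TE share and depth in these values was not tested.

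The same order of libraries ran through the complexes. Against each gene's mean over all 10 libraries, the median log2 level of the tested members was 0.12, -0.39, 0.13, -0.08 and -0.12 in 42 °C replicates 1 to 5, against -0.04, 0.21, -0.08, 0.04 and 0.10 in 33 °C replicates 1 to 5. In 42 °C replicate 2 the class medians were between -0.48 for the core of complex I and -0.22 for the Ndufa4 pair, while the median of protein-coding genes with a mean of at least 10 CPM was -0.26 and that of all features was -0.01. Only there did every class lie below -0.20. With all 10 libraries the spread was also larger at 42 °C. The median coefficient of variation of the 91 members was 17.0% at 42 °C and 10.98% at 33 °C, and 77 members varied more at 42 °C. For protein-coding genes with a mean of at least 10 CPM it was 16.3% at 42 °C and 12.9% at 33 °C, and 4526 of 7675 varied more at 42 °C. Without 42 °C replicate 2 the 42 °C value of the members was 13.4%, and 44 members varied more at 42 °C. For those protein-coding genes the 42 °C value was then 12.15%, under the 12.9% at 33 °C, and 3073 of 7675 varied more at 42 °C.

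**Figure D3:**
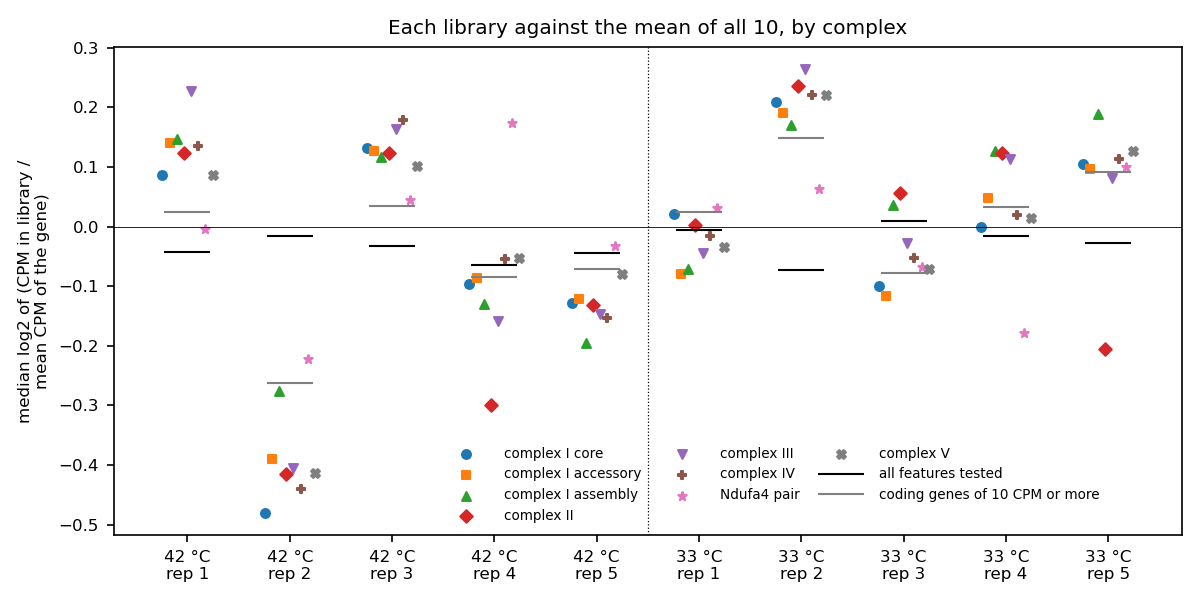
Median log2 of the level in each library over the gene's mean of all 10 libraries, by complex (symbols), with 42 °C libraries left of 33 °C libraries. Bars give the median of all 26025 features (black) and of protein-coding genes with a mean of at least 10 CPM (grey); 42 °C replicate 2 lies lowest in every class, at -0.48 to -0.22.

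Complex I, the entry point for electrons from NADH, had 37 subunit genes, all tested. All 7 core subunits had a log2 fold change under 0 (median -0.14, and -0.02 with 4 of 7 under 0 without 42 °C replicate 2), and so had 25 of 30 accessory subunits (median -0.09, and 0.02 with 12 of 30 under 0 without it). Ndufs1, the largest core subunit and a carrier of iron-sulfur clusters (chromosome 1, 63143596 to 63176833), was at 123, 68.7, 111, 82.9 and 96.5 CPM in 42 °C replicates 1 to 5, against 115, 135, 94.2, 127 and 117 CPM in 33 °C replicates 1 to 5. Its groups overlapped (log2 fold change -0.29, 95% interval -0.64 to 0.06; adjusted p = 0.482 by edgeR), and the log2 fold change was -0.16 without 42 °C replicate 2. Ndufv2, a core subunit of the NADH-oxidizing module, was the core subunit of highest level per kb, at 90.1 ± 14.6 CPM per kb at 42 °C and 97.0 ± 9.00 CPM per kb at 33 °C. Ndufs7 was the lowest, at 6.43 ± 0.768 CPM per kb at 42 °C and 7.10 ± 0.349 CPM per kb at 33 °C.

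Ndufs8, another iron-sulfur core subunit (chromosome 19, 3908863 to 3912774), was picked out after its values were seen, for its spread. It was at 18.7, 9.10, 21.98, 7.46 and 10.3 CPM in 42 °C replicates 1 to 5, against 10.6, 12.97, 12.5, 17.7 and 21.4 CPM in 33 °C replicates 1 to 5. The coefficient of variation was 47.5% at 42 °C and 29.3% at 33 °C, and each group held both low and high libraries (log2 fold change -0.15, 95% interval -0.81 to 0.51; adjusted p = 0.826 by edgeR; -0.02 without 42 °C replicate 2).

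Among the accessory subunits of complex I, Ndufa5 and Ndufa13 had the smallest p-values, both with a level higher at 42 °C. Ndufa5 (chromosome 6, 24518666 to 24528013) was at 28.5, 25.4, 27.3, 35.3 and 23.3 CPM in 42 °C replicates 1 to 5, against 18.1, 23.8, 20.98, 21.1 and 31.0 CPM in 33 °C replicates 1 to 5. Of the 33 °C libraries, replicate 5 stood among the 42 °C values and replicate 2 just above the lowest of them (log2 fold change 0.28, adjusted p = 0.485 by edgeR). Ndufa13, which is also known as the cell death regulator GRIM-19, was at 14.4, 14.1, 16.7, 18.7 and 20.8 CPM in 42 °C replicates 1 to 5, against 11.1, 11.2, 19.9, 11.6 and 14.8 CPM in 33 °C replicates 1 to 5. Its groups overlapped through 33 °C replicates 3 and 5 (log2 fold change 0.30, adjusted p = 0.501 by edgeR). Exons of Tssk6, a kinase gene of spermatids, cover 375 bases or 30.0% of the Ndufa13 exons on the opposite strand, and since the strand setting of the counting is not given in the sources used here, reads of the 2 genes may not have been told apart. Ndufa12 was the accessory subunit of highest level per kb (129 ± 16.4 CPM per kb at 42 °C and 137 ± 20.5 CPM per kb at 33 °C), though a copy, Ndufa12-ps, held 12.9% of the counts of the gene and its copy. The lowest was the X-linked Ndufb11, at 0.760 ± 0.122 CPM per kb at 42 °C and 0.709 ± 0.272 CPM per kb at 33 °C.

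The Ndufaf genes encode factors that help build complex I and are not part of the finished enzyme. Of 7 tested, 6 had a log2 fold change under 0, with a median of -0.15 (-0.03 without 42 °C replicate 2). Ndufaf3 (chromosome 9, 108565537 to 108567434) stood apart from the others in level, at 101 ± 13.1 CPM per kb at 42 °C and 119 ± 14.1 CPM per kb at 33 °C (SD over 5 mice each), where the class medians were 5.03 at 42 °C and 4.93 at 33 °C. It was at 184, 165, 223, 164 and 184 CPM in 42 °C replicates 1 to 5, against 209, 241, 229.7, 227 and 176 CPM in 33 °C replicates 1 to 5. The highest 42 °C library lay among the 33 °C values and the lowest 33 °C library among those at 42 °C (log2 fold change -0.24, 95% interval -0.50 to 0.03; adjusted p = 0.471 by edgeR). Ndufaf8 averaged 12.2 ± 2.46 CPM at 42 °C and 14.6 ± 1.35 CPM at 33 °C (adjusted p = 0.491 by edgeR), and Ndufaf4 was the lowest tested factor, at 0.322 CPM per kb at 42 °C and 0.336 CPM per kb at 33 °C.

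Complex II oxidizes succinate and links the citric acid cycle to the chain. Its 4 genes differed in level, from Sdha, the flavoprotein, at 25.5 ± 4.41 CPM per kb at 42 °C and 29.4 ± 2.50 CPM per kb at 33 °C, to Sdhc, a membrane anchor, at 1.53 ± 0.429 CPM per kb at 42 °C and 1.33 ± 0.273 CPM per kb at 33 °C (SD over 5 mice each). With principal transcript lengths Sdhb stood before Sdha, at 42.5 against 39.1 CPM per kb over all 10 libraries. Sdhd, the other membrane anchor (chromosome 9, 50596357 to 50603812), was at 24.5, 15.2, 24.2, 13.7 and 20.4 CPM in 42 °C replicates 1 to 5, against 22.8, 26.1, 29.1, 30.1 and 16.1 CPM in 33 °C replicates 1 to 5. The groups overlapped, 33 °C replicate 5 being the lowest of its group. The log2 fold change of Sdhd, the lowest of all members, was -0.34 (95% interval -0.79 to 0.11; adjusted p = 0.496 by edgeR). Sdha had -0.21 (adjusted p = 0.507 by edgeR) and Sdhc 0.21 (adjusted p = 0.669 by edgeR). Without 42 °C replicate 2 these were -0.10 for Sdha and 0.10 for Sdhc.

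Complex III passes electrons from ubiquinol to cytochrome c. Of the 8 genes that the name rule took from it, 7 had a log2 fold change under 0 (median -0.15, and -0.04 with 5 of 8 under 0 without 42 °C replicate 2). The exception, Uqcrq (chromosome 11, 53427922 to 53430831), encodes a small subunit near cytochrome b. It was at 142, 51.7, 162, 97.3 and 98.1 CPM in 42 °C replicates 1 to 5, against 67.3, 124, 96.9, 64.7 and 66.1 CPM in 33 °C replicates 1 to 5. The lowest of the 10 values and the 2 highest were at 42 °C, and the coefficient of variation was 39.2% at 42 °C and 31.1% at 33 °C. Its log2 fold change was 0.40 (95% interval -0.21 to 1.01; adjusted p = 0.547 by edgeR) and 0.60 without 42 °C replicate 2 (adjusted p = 0.473 by edgeR). Uqcrb averaged 32.2 ± 5.44 CPM at 42 °C and 37.3 ± 2.82 CPM at 33 °C (log2 fold change -0.21, adjusted p = 0.496 by edgeR; -0.12 without 42 °C replicate 2). The core protein Uqcrc1 had the highest level per kb of the 8 genes, at 61.8 ± 7.91 CPM per kb at 42 °C and 68.8 ± 6.01 CPM per kb at 33 °C. Uqcrc2, the other core protein, was the lowest of the 8, at 14.8 ± 2.87 CPM per kb at 42 °C and 16.9 ± 2.28 CPM per kb at 33 °C. It shares 504 exon bases with Pdzd9 on the opposite strand. Cyc1, which encodes cytochrome c1 of complex III, falls outside the name rule and was counted with the electron carriers below. Cyc1 averaged 5.88 ± 0.696 CPM at 42 °C and 6.54 ± 0.769 CPM at 33 °C (SD over 5 mice each; adjusted p = 0.63 by edgeR).

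Over complex IV as a whole, 13 of 15 tested genes had a log2 fold change under 0 (median -0.09, range -0.16 to 0.00). Without 42 °C replicate 2, 5 of 15 lay under 0 and the median was 0.03. The testis forms, at -0.14 for Cox8c, -0.13 for Cox7b2 and -0.09 for Cox6b2, lay inside this range, which ran from Cox4i1 to Cox5b-ps. Cox5b-ps has a near-identical copy in Cox5b, which held 99.0% of the counts of the pair.

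Complex V, the ATP synthase, held the members of smallest p in each direction. Atp5pb (ENSMUSG00000000563, chromosome 3, 105942698 to 105960099) encodes the b subunit of the stalk that holds the catalytic head still. It was at 57.1, 43.8, 56.1, 47.2 and 50.3 CPM in 42 °C replicates 1 to 5, against 59.1, 74.0, 56.8, 63.9 and 62.5 CPM in 33 °C replicates 1 to 5. The groups overlapped narrowly, the highest 42 °C value being 57.1 and the lowest 33 °C value 56.8. The log2 fold change was -0.31 (95% interval -0.56 to -0.06), with an unadjusted edgeR p of 0.0182 and an adjusted p of 0.386. Without 42 °C replicate 2 it was -0.23 (adjusted p = 0.479 by edgeR). Its exons overlap those of Wdr77 on the opposite strand over 337 bases.

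Atp5mpl (ENSMUSG00000021290, chromosome 12, 111961375 to 111966977), a small membrane-bound protein associated with ATP synthase, was at 21.8, 20.1, 21.6, 29.4 and 22.8 CPM in 42 °C replicates 1 to 5, against 14.6, 16.9, 17.4, 12.4 and 25.7 CPM in 33 °C replicates 1 to 5. Of the 33 °C libraries 4 lay below all 42 °C values, and replicate 5 lay above 4 of them. The log2 fold change was 0.41 (95% interval 0.003 to 0.82), with an unadjusted edgeR p of 0.0484 and an adjusted p of 0.434. Limma voom with sample weights gave 0.53 (adjusted p = 0.0710), and leaving out 33 °C replicate 5 gave 0.64 by edgeR (adjusted p = 0.0742). Neither passed the threshold. Atp5b, the catalytic beta subunit, was the member of highest CPM, at 486 ± 76.6 CPM at 42 °C and 535 ± 55.5 CPM at 33 °C (SD over 5 mice each; log2 fold change -0.14, adjusted p = 0.647 by edgeR; -0.02 without 42 °C replicate 2). Over the 18 genes of complex V, 14 had a log2 fold change under 0 (median -0.07, and 0.02 with 7 of 18 under 0 without 42 °C replicate 2). The table has 2 rows with the symbol Atp5o, and the shorter (ENSMUSG00000116933) shares 287 of its 530 exon bases with Donson and 243 with the other (ENSMUSG00000022956), so their split is uncertain.

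**Figure D4:**
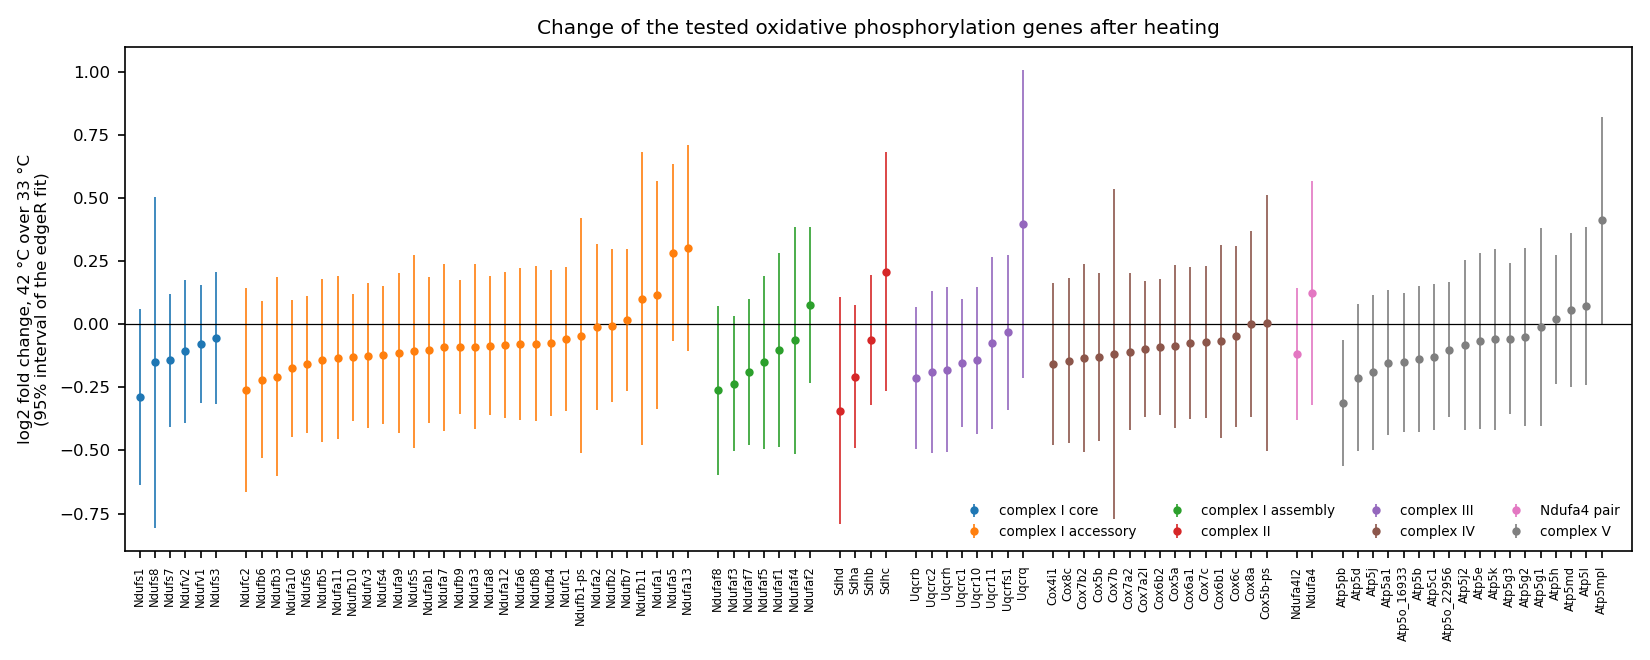
Log2 fold change, 42 °C over 33 °C, of 90 of the 91 tested genes with the 95% interval of the edgeR fit, ordered within each complex. Atp5pb (-0.31) and Atp5mpl (0.41) are the genes whose interval leaves out 0, and no tested gene passed the adjusted threshold.

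**Figure D5:**
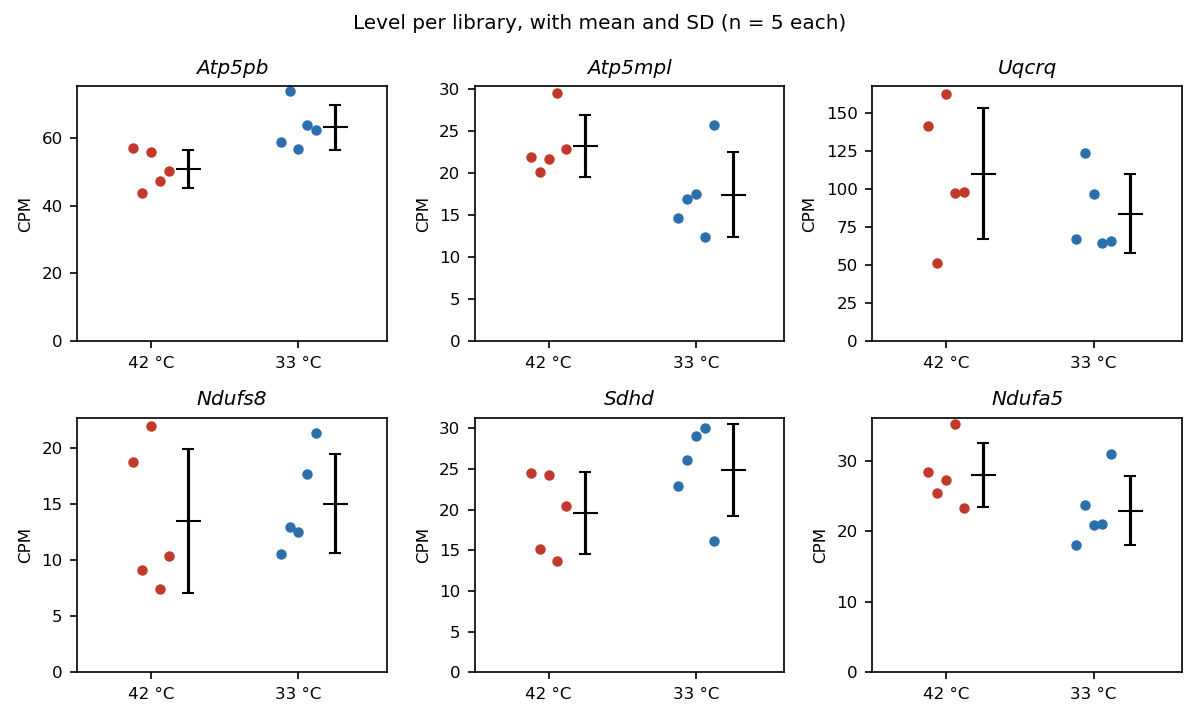
CPM in each library of 6 genes of small p or large spread, with 42 °C in red left of 33 °C in blue, and the mean and SD beside the points (n = 5 each). For Atp5pb the groups overlap narrowly, the highest 42 °C value (57.1) lying just above the lowest 33 °C value (56.8), and Uqcrq and Ndufs8 spread widely in both groups.

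The X chromosome is silenced in meiosis and stays largely repressed in round spermatids, and the 3 tested members on it lay below the median of the autosomal members. Cox7b, Ndufb11 and Ndufa1 lay at 0.156 to 3.90 CPM per kb over all libraries, with a median of 0.734, against a median of 20.3 (0.309 to 426) for the 88 tested members on autosomes. Among all tested protein-coding genes the medians were 0.825 CPM per kb for 592 genes of the X chromosome and 2.17 for 15398 on autosomes. Cox7b has an autosomal paralogue in the high range, Cox7b2. Ndufa1 averaged 1.70 ± 0.457 CPM at 42 °C and 1.57 ± 0.0982 CPM at 33 °C (SD over 5 mice each), and its mean of 3.90 CPM per kb ranked 6554 of 16082 protein-coding genes, above their median. None of the 3 passed the test.

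Of 13 subunits encoded in mitochondrial DNA, 0 were called, with a median log2 fold change of 0.01 (0.11 without 42 °C replicate 2). Their summed level varied widely in both groups, at 2796 to 7472 CPM at 42 °C and 2517 to 6754 CPM at 33 °C, with the high values in 42 °C replicate 4 and 33 °C replicate 3, neither of which was extreme for the nuclear members. Of 6 electron carrier genes, Cyc1 of complex III among them, 0 were called (median -0.06, and 0.01 without 42 °C replicate 2). They include Cyct, the testis form of cytochrome c, at 21.9 ± 2.62 CPM at 42 °C and 23.3 ± 2.90 CPM at 33 °C (SD over 5 mice each). Cycs, the somatic form, was at 4.61 ± 0.624 CPM at 42 °C and 4.72 ± 1.02 CPM at 33 °C (SD over 5 mice each). Smallest in p among the 6 were Etfb (log2 fold change 0.33, adjusted p = 0.451 by edgeR) and Etfdh (-0.28, adjusted p = 0.485 by edgeR). Of 43 further assembly factors 0 were called, with 33 under 0 and a median of -0.14 (-0.09 without 42 °C replicate 2). Of 15 regulators of mitochondrial gene expression 0 were called, with 9 under 0 and a median of -0.14 (-0.09 without 42 °C replicate 2). Gabpb1 and Nrf1 had the smallest p-values of these. Nrf1, whose protein binds the NRF1 letters shown above, averaged 13.4 ± 1.78 CPM at 42 °C and 10.1 ± 2.94 CPM at 33 °C (log2 fold change 0.40, adjusted p = 0.444 by edgeR). Gabpb1, a subunit of the ETS-type factor GABP, averaged 15.6 ± 2.93 CPM at 42 °C and 11.7 ± 1.72 CPM at 33 °C (log2 fold change 0.42, adjusted p = 0.386 by edgeR). Gabpa, the DNA-binding subunit of GABP, averaged 24.8 ± 5.17 CPM at 42 °C and 29.5 ± 3.82 CPM at 33 °C (log2 fold change -0.25, adjusted p = 0.503 by edgeR). Its exons share 397 bases on the opposite strand with the member Atp5j, at 80.2 CPM at 42 °C and 91.5 CPM at 33 °C. Reads of these 2 genes may not have been told apart. Among the markers of germ cell stages 0 genes were called too, with median log2 fold changes of 0.32 for round spermatids (13 of 15 above 0), 0.38 for elongating spermatids (13 of 14 above 0), -0.26 for spermatocytes (11 of 14 under 0) and 0.07 for spermatogonia (8 tested). Without 42 °C replicate 2 these medians were 0.36, 0.49, -0.26 and 0.21 in the same order. The part of these stages in the values of the members was not tested.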

How the data were processed

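RNA of round spermatids from 5 mice at 42 °C and 5 at 33 °C was analysed. As deposited by the authors, the 1 table holds read counts per gene and per TE subfamily without normalization, judging from whole numbers and unequal totals. Per the submitters' processing notes, DRAGEN, cutadapt and Trim Galore were used, and mm10 and GRCm38 are the builds, without versions or roles. Which tool counted the reads, with which strand setting and which rule for multiply aligned reads, is not given in the sources used here. Positions, exon lengths and overlaps came from GENCODE M21 (GRCm38), which gives all 96 members the positions of the table.

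The deposited counts entered edgeR 4.0.16 (R 4.3.3) and its quasi-likelihood test, group as the only term, with TMM factors over genes and TE together. filterByExpr (minimum count 10, minimum total 15) left 26025 features, and Benjamini-Hochberg adjustment ran over all of them. CPM use TMM-scaled library sizes. Intervals are 95% intervals of the fit. DESeq2 1.42.0, limma 3.58.1 (voom with sample weights) and other scalings, filters and left-out libraries served as alternatives. The fit was first tested on simulated counts. Copies are pseudogenes or other members of at least 95% identity over 150 bases or more and 0.5 of the shorter transcript. The closest libraries of one group, 42 °C replicates 1 and 3, differed by 13.9 in chi-square per degree of freedom, above sampling noise.

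A gene is not reported by itself here. Members and lists were chosen with earlier results of these data known. Genes were named by rule: members past the threshold (0), all members of the 8 paralogue sets, per class those of smallest p and of highest and lowest level per kb, and up to 2 of smallest p in other lists. Ndufs8, Ndufa1, Ndufaf6, Sdhb, Cox5b, Cox5b-ps, Atp5j, Cyc1, Cyct, Cycs, Gabpa and genes that overlap or copy a member were named outside the rule, with their values seen.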

Additional observations from a re-analysis of the deposited data

Results flagged for a closer look

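Of 70 group ranges of named genes checked, 3 held a library whose gap to its nearest neighbour took more than 0.71 of the range of its group of 5. Chance gives about 1 in 20 such groups. Cox7a2 was at 84.5 CPM in 42 °C replicate 2, where the other 42 °C libraries were at 132 to 148 CPM. Cox7a2l was at 48.7 CPM in 33 °C replicate 2, where the other 33 °C libraries were at 42.2 to 43.5 CPM. Ndufa4 was at 0.527 CPM in 42 °C replicate 4, where the other 42 °C libraries were at 0.415 to 0.442 CPM.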

How the results depend on the processing

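Over 20 alternative settings, 0 members were called higher and 0 lower in each, and the smallest adjusted p of any member was 0.0636 (Uqcrq, limma voom without 42 °C replicate 2). At an unadjusted p of 0.05, where edgeR gave 1 higher and 1 lower, 2 were higher with library totals, 4 with limma voom and 6 with limma voom without 42 °C replicate 2, while 0 were lower in that last fit and with no filter on low counts. Leaving out 1 library at a time gave 0 to 2 higher and 0 to 3 lower. In the main fit 8.56% of all features were higher and 2.94% lower at this threshold. Those shares were not counted for the alternative fits, so these counts say nothing particular about the members. Of 91 members, 76 had a log2 fold change under 0, against 40 with limma voom, 22 with limma voom without 42 °C replicate 2, and 42 (without 42 °C replicate 2) to 80 (without 42 °C replicate 3) when 1 library was left out. The median of -0.097 became 0.075 with limma voom without 42 °C replicate 2 and ran from -0.16 to 0.011 over the fits without 1 library. In that limma voom fit the median of protein-coding genes with a mean of at least 10 CPM was -0.009. The labels do not say whether the replicate numbers pair the mice. Deviations of same-numbered libraries correlated at -0.411 to -0.122, and no 42 °C library correlated best with its own number. With the replicate block 0 members were higher and 0 lower at an unadjusted p of 0.05. The causes were not tested.

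Of 697 log2 fold changes of 35 named genes under these settings, 639 kept their sign and 58 had the other sign in 17 genes. Atp5g1 stood at 0.003 with DESeq2 size factors, 0.003 with DESeq2, 0.039 with TMM factors from protein-coding genes, 0.041 with library totals, 0.027 with no filter, 0.022 with a mean of at least 1 CPM and 0.033 with genes only. With the replicate block, Cox8a had -0.018. With limma voom the sign differed in Cox4i1 (0.034), Cox6b1 (0.081), Cox7a2 (0.005), Cox7a2l (0.023), Cox7b2 (0.036), Atp5g3 (0.028), Atp5g2 (0.002), Ndufv2 (0.008) and Ndufa12 (0.04). With limma voom without 42 °C replicate 2 it differed in Cox4i1 (0.111), Cox6a1 (0.045), Cox6b1 (0.136), Cox7a2 (0.065), Cox7a2l (0.078), Cox7b2 (0.112), Cox8c (0.079), Atp5g3 (0.098), Atp5g2 (0.032), Ndufv2 (0.065), Ndufa12 (0.083), Ndufaf4 (0.031) and Uqcrb (0.007). Leaving out 1 library at a time gave -0.123 to 0.124 for Atp5g1, -0.118 to 0.07 for Atp5g2, -0.142 to 0.034 for Atp5g3, -0.189 to 0.028 for Cox6a1, -0.146 to 0.077 for Cox6b1, -0.172 to 0.038 for Cox7a2, -0.148 to 0.018 for Cox7a2l, -0.25 to 0.151 for Cox7b, -0.128 to 0.082 for Cox8a, -0.15 to 0.032 for Ndufa12, -0.149 to 0.111 for Ndufaf4, -0.007 to 0.36 for Ndufb11 and -0.181 to 0.012 for Ndufv2.

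The parts of depth and of the spread between mice in the width of the intervals were not tested. Exon overlaps on the opposite strand affect 31 members, 4 of them over more than 20% of their exons, and 6 have overlaps on the same strand. Pseudogene copies exist for 23 members and held over 10% of the counts in 4, and Cox5b and Cox5b-ps are copies of each other. The principal transcript length was an alternative chosen after seeing the data.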
